A study of Mus musculus with 20 samples.

Results

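The transcripts of 10 genes that mark Kupffer cells, recruited monocyte-derived macrophages and their inflammatory signals were followed in mouse liver: Cd68, Adgre1, Clec4f, Cd5l, Ccl2, Ccr2, Itgax, Trem2, Gpnmb and Tnf. They were taken from the table of raw counts by gene symbol, through the Ensembl identifiers of GENCODE release M21, and all 10 of 10 were found among its 21780 genes. All 10 were also among the 15522 genes with at least 10 counts over the libraries, which were the genes tested. The rule uses gene names and no measured value, but the 10 genes were chosen with earlier results of these data known. RNA was sequenced from 1 liver from each of 20 male C57Bl/6J mice, 8 weeks old at the start, all fed a high-fat diet (HFD) with 42% of its energy from fat for 12 weeks. After 2 weeks of the diet, 5 mice received a single gavage of corn oil (HFD control), 5 received Aroclor 1260, a commercial mixture of mostly non-dioxin-like polychlorinated biphenyls (PCBs), at 20 mg/kg (HFD + Aroclor), 5 received the dioxin-like congener PCB 126 at 20 µg/kg (HFD + PCB 126), and 5 received both at these doses (HFD + Aroclor + PCB 126). The methods give 10 weeks of exposure and the labels 12 weeks. Every group was fed the HFD, so none of the comparisons below includes a lean liver. The question addressed was whether the transcripts of liver macrophages differed between the exposures.

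Kupffer cells are the resident macrophages of the liver sinusoids, where they take up particles, dying cells and iron. When the liver is injured or overloaded with fat, the chemokine Ccl2 draws monocytes that carry its receptor Ccr2 out of the blood, and these can become macrophages that handle lipid and debris. Some of the markers are shared by both populations, while Clec4f in the mouse liver is made by Kupffer cells. In whole liver RNA, fewer cells of a type and less RNA per cell cannot be told apart.

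On GRCm38, the general macrophage and Kupffer cell markers lie at chr11:69664213-69666153 (Cd68, ENSMUSG00000018774), chr17:57358691-57483527 (Adgre1, ENSMUSG00000004730), chr6:83644542-83656187 (Clec4f, ENSMUSG00000014542) and chr3:87357881-87371073 (Cd5l, ENSMUSG00000015854). Ccl2 (ENSMUSG00000035385) lies at chr11:82035571-82037453 and Ccr2 (ENSMUSG00000049103) at chr9:124101950-124113557. Itgax (ENSMUSG00000030789) lies at chr7:128129547-128150657, Trem2 (ENSMUSG00000023992) at chr17:48346401-48354147, Gpnmb (ENSMUSG00000029816) at chr6:49036546-49070929 and Tnf (ENSMUSG00000024401) at chr17:35199381-35202007. Of the 10 gene spans, only that of Ccl2 overlaps another gene of the table, Gm17268 on the opposite strand, with 0 exon bases in common.

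PU.1, the transcription factor that specifies myeloid cells, recognises a core of the letters GAGGAA. RefSeq promoter windows of 250 bases (GRCm38.p6) were given for 8 of the 10 genes, all but Adgre1 and Ccl2, and 4 of these 8 held GAGGAA on either strand (Cd68, Cd5l, Trem2 and Tnf), against 23.3% of 32851 promoter windows. The first base of the match lay at -225 from the transcript start in Cd68, at -66 in Cd5l, at -40 in Trem2 and at -117 in Tnf, on the gene's own strand in Cd68 and on the opposite strand in the other 3. A restricted form of the NF-kB motif, with only T where the consensus allows C or T, was searched on both strands. It was in 0 of the 8 and in 1.41% of all windows. Forms with C at these positions were not searched, so whether the 8 windows hold the full consensus was not tested. A match describes the letters searched only. The promoters of Cd68, Cd5l and Clec4f are shown because the levels of these 3 genes varied together from mouse to mouse (described further on), with capitals marking GAGGAA or its reverse complement, each read 5′ to 3′ on the strand of the gene, at chr11:69666171-69666420, chr3:87357631-87357880 and chr6:83656188-83656366, the last being the stretch of its window outside annotated exons.
Cd68: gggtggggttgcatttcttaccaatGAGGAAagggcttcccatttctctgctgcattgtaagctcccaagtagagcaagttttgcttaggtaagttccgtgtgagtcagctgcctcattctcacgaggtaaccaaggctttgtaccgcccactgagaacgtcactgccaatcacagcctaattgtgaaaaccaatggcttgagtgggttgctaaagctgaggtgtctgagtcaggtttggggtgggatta
Cd5l: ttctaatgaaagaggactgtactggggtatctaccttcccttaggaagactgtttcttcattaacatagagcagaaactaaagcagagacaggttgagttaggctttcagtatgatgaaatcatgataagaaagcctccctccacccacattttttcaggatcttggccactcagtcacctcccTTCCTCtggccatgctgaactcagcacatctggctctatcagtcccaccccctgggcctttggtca
Clec4f: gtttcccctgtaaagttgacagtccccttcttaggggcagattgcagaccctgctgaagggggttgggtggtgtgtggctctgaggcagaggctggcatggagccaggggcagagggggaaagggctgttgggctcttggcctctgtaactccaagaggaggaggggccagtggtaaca

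Transcript levels differed widely between the markers. Per length, as FPKM computed from the counts, Cd5l was the highest (mean over 20 libraries 57.3, range 23.5 to 110.4), followed by Clec4f (36.5), Cd68 (7.15), Adgre1 (4.82), Ccl2 (1.76), Ccr2 (0.626), Itgax (0.588), Gpnmb (0.365), Trem2 (0.249) and Tnf (0.134). Cd5l was above Clec4f and Clec4f above Cd68 in 20 of 20 libraries. Ccr2 was above Itgax in only 11 of 20 libraries and Gpnmb above Trem2 in 12 of 20, so these neighbours did not differ beyond their spread. Tnf had the fewest counts, 1 to 19 per library, and Trem2 had 6 to 76.

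Counts are given below as CPM, counts per 1000000 counts of the library, after TMM scaling of the library sizes, with the mice of a group in the order of replicates 1 to 5. Total counts ranged from 21836506 to 36854887 per library, so that a gene at 1 CPM had over 10 counts everywhere. The labels were checked with Cyp1a2, a target of the dioxin receptor, which was at 249 to 517 CPM in HFD control, 279 to 492 in HFD + Aroclor, 1120 to 2601 in HFD + PCB 126 and 537 to 992 in HFD + Aroclor + PCB 126. Its relative Cyp1a1 was at 4.09 to 314 CPM in HFD + PCB 126 but at 0.792 to 2.62 in HFD + Aroclor + PCB 126, which overlaps the 0.219 to 0.940 of HFD control. The libraries also differed in how counts depended on the GC content of the transcripts. This slope, in log2 CPM per 10 percentage points of GC, was 0.11 to 0.46 in HFD control, -0.10 to 0.11 in HFD + Aroclor, -0.11 to 0.38 in HFD + PCB 126 and -0.57 to -0.13 in HFD + Aroclor + PCB 126. The slopes of HFD control and of the combined exposure did not overlap, so the exposure and this property of the libraries cannot be told apart, and the main tests are given before and after a correction for GC content. Among the 10 genes, GC content was lowest in Ccr2 (39.2%), then Ccl2 (43.9%) and Adgre1 (47.6%), and highest in Cd68 (53.6%).

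**Figure D1:**
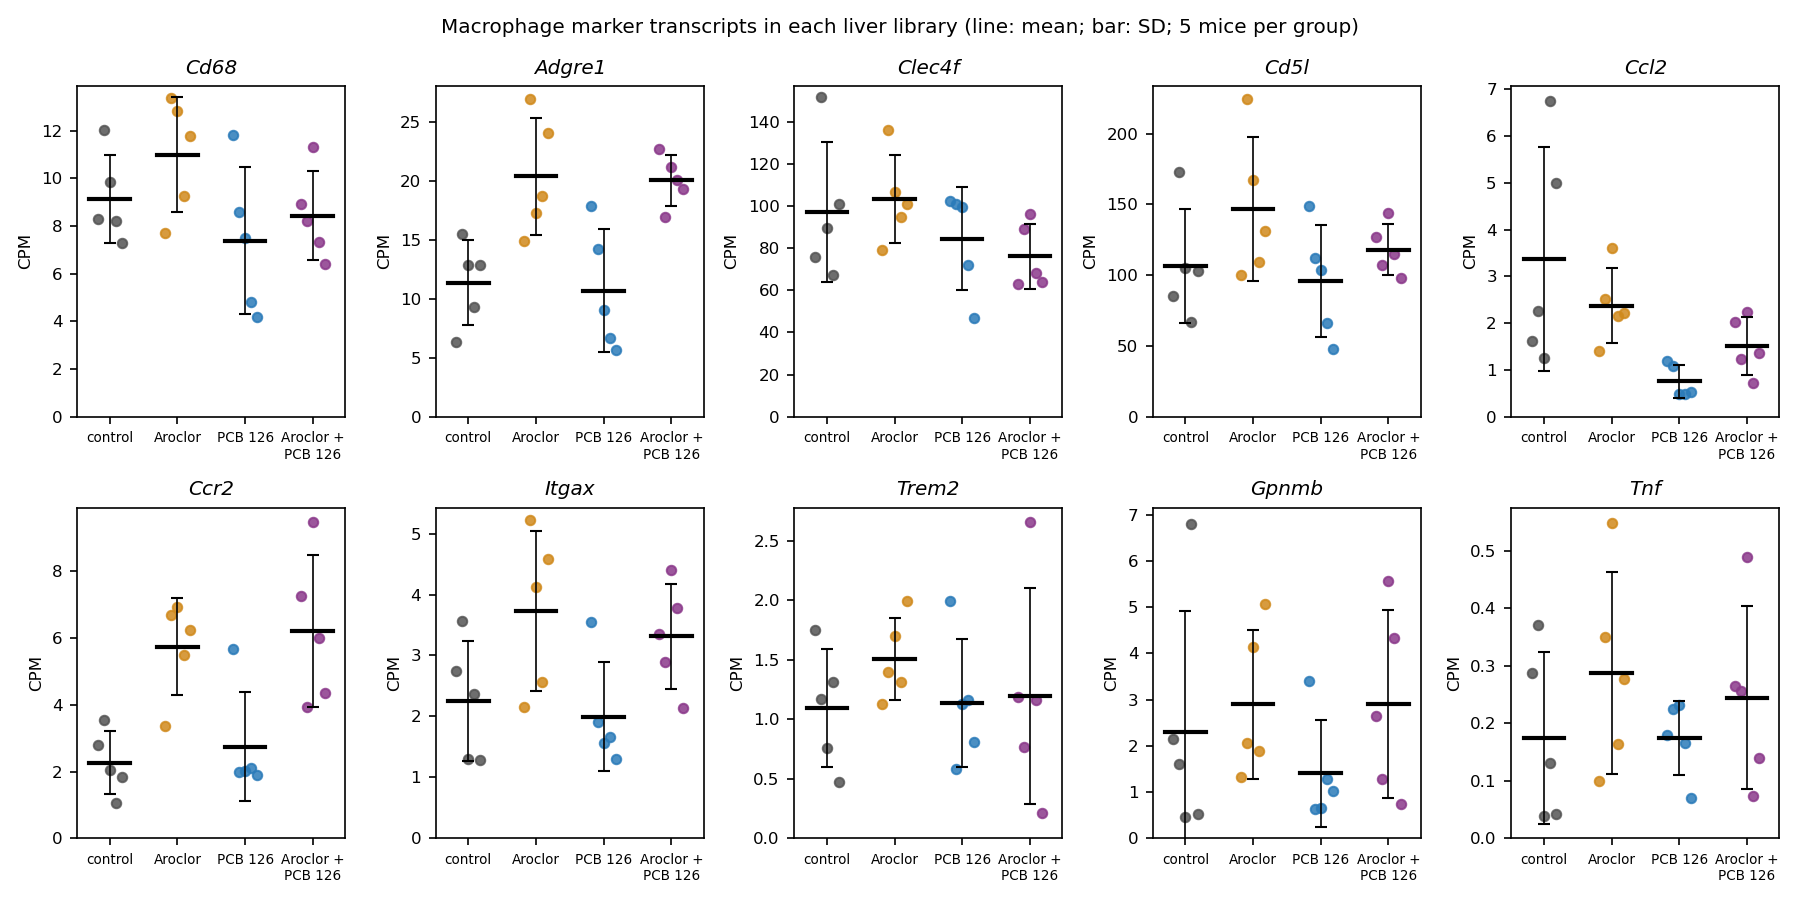
Level of each of the 10 transcripts in CPM (linear axes starting at 0, a scale for each gene) in the 4 groups, with 1 point per mouse, a line at the mean and a bar for the SD (n = 5), cut at 0 where it would run below. The means of Adgre1 and Ccr2 are higher in both groups given Aroclor, and all 5 Ccl2 points of HFD + PCB 126 lie under the lowest HFD control.

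Clec4f, a lectin receptor by which Kupffer cells bind glycoproteins and platelets, was at 75.8, 152, 89.6, 67.2 and 101 CPM in HFD control, 79.0, 136, 107, 94.6 and 101 in HFD + Aroclor, 102, 101, 99.5, 72.2 and 46.9 in HFD + PCB 126 and 62.8, 89.1, 96.3, 68.4 and 64.1 in HFD + Aroclor + PCB 126. The 4 groups overlapped throughout. By edgeR's quasi-likelihood test the log2FC against HFD control was 0.09 with Aroclor (95% interval -0.37 to 0.55), -0.20 with PCB 126 (-0.67 to 0.26) and -0.35 with both (-0.81 to 0.11), and the lowest of the 3 adjusted p-values was 0.245. Cd5l, a protein that macrophages secrete and that keeps them alive under lipid load, was at 66.9 to 173 CPM in HFD control, 100 to 225 in HFD + Aroclor, 47.8 to 149 in HFD + PCB 126 and 97.7 to 144 in the combined exposure. Its log2FC was 0.46 with Aroclor, -0.15 with PCB 126 and 0.15 with both, with intervals that all included 0.

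Cd68, a lysosomal membrane protein of all macrophages, was at 8.28, 12.0, 9.84, 8.20 and 7.31 CPM in HFD control and at 7.71, 13.4, 12.8, 9.26 and 11.8 in HFD + Aroclor. It was at 11.8, 8.60, 7.52, 4.81 and 4.19 in HFD + PCB 126 and at 8.93, 8.22, 11.3, 7.34 and 6.40 in HFD + Aroclor + PCB 126. Only 2 of 5 Aroclor mice were above the highest control. The log2FC of Cd68 was 0.27 with Aroclor (95% interval -0.22 to 0.75, adjusted p = 0.546 in edgeR), -0.30 with PCB 126 (-0.79 to 0.19) and -0.12 with both (-0.61 to 0.37). The fitted fold change was 1.20 with Aroclor, and all 3 intervals included no change.

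Adgre1 encodes F4/80, the surface receptor used to stain mouse macrophages. It was at 6.32, 15.5, 12.9, 9.34 and 12.9 CPM in HFD control and at 14.9, 27.0, 17.3, 18.7 and 24.0 in HFD + Aroclor. It was at 17.9, 14.2, 9.07, 6.64 and 5.63 in HFD + PCB 126 and at 22.7, 16.95, 21.2, 20.03 and 19.3 in HFD + Aroclor + PCB 126. With Aroclor alone 4 of 5 mice, and with both PCBs 5 of 5 mice, were above the highest control, while HFD + PCB 126 overlapped HFD control. With both PCBs, 10.6% of all genes tested were higher in every exposed mouse than in every control, and after GC correction the Adgre1 levels of this group overlapped HFD control. The means were 11.4 ± 3.57 (SD, n = 5), 20.4 ± 4.97, 10.7 ± 5.21 and 20.05 ± 2.15 CPM. Adgre1 rose with the combined exposure before GC correction, with a log2FC of 0.82 (SE 0.27, adjusted p = 0.0248 in edgeR), and after the correction this was 0.62 (adjusted p = 0.188). The difference was of like size with Aroclor alone, at 0.84 (SE 0.27), but did not pass the threshold there (adjusted p = 0.195 before and 0.409 after GC correction). Without HFD control replicate 1, whose Adgre1 was the lowest of its group, the combined exposure gave 0.66 (adjusted p = 0.0697), and without HFD + Aroclor + PCB 126 replicate 4 it gave 0.77 (adjusted p = 0.0550).

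Ccr2, the receptor by which inflammatory monocytes follow Ccl2, was at 2.80, 3.54, 2.06, 1.05 and 1.85 CPM in HFD control and at 3.36, 6.68, 6.93, 5.49 and 6.24 in HFD + Aroclor. It was at 5.67, 2.00, 2.02, 2.12 and 1.90 in HFD + PCB 126 and at 7.26, 3.92, 9.48, 6.00 and 4.34 in HFD + Aroclor + PCB 126. All 5 mice of the combined exposure and 4 of 5 with Aroclor alone were above the highest control, and in HFD + PCB 126 this held for replicate 1 alone. Such a full separation upward with both PCBs was seen for 10.6% of all genes tested, and after GC correction the Ccr2 levels of the combined exposure overlapped HFD control. Ccr2 rose with the combined exposure, to 6.20 ± 2.27 from 2.26 ± 0.947 CPM (SD, n = 5), with a log2FC of 1.44 (SE 0.34, adjusted p = 0.00391 in edgeR). This call was kept without each of the 10 mice in turn (1.21 to 1.64), but after GC correction, Ccr2 being the gene of lowest GC content among the 10, the log2FC was 0.79 (adjusted p = 0.217). Ccr2 differed by 1.33 with Aroclor alone (SE 0.34, adjusted p = 0.184), or by 0.99 after GC correction, and by 0.27 with PCB 126 alone (95% interval -0.45 to 0.98).

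Ccl2, the ligand of Ccr2, was at 1.62, 2.25, 1.26, 6.75 and 4.99 CPM in HFD control and at 1.40, 2.51, 3.61, 2.16 and 2.21 in HFD + Aroclor. It was at 1.19, 1.10, 0.497, 0.498 and 0.528 in HFD + PCB 126 and at 2.02, 1.24, 2.24, 0.727 and 1.36 in HFD + Aroclor + PCB 126. All 5 PCB 126 mice were below the lowest control, as was the case for 0.908% of the 15522 genes tested, and the control group itself was split between replicates 4 and 5 and the other 3. The log2FC with PCB 126 was -2.11 (SE 0.44, 95% interval -3.04 to -1.20), the largest in size of the 10 genes in any comparison with HFD control, with an adjusted p of 0.0506 in edgeR, just over the threshold of 0.05. Ccl2 passed it once GC content was corrected for (-2.09, adjusted p = 0.0349). Without HFD control replicate 4 the value was -1.69 (adjusted p = 0.105) and without replicate 5 it was -1.93 (adjusted p = 0.121). With both PCBs Ccl2 fell by 1.14 on the log2 scale (SE 0.42, adjusted p = 0.0432) although the groups overlapped, and this call was lost without HFD control replicate 4 (-0.72, adjusted p = 0.155), without replicate 5 (-0.95, adjusted p = 0.107), without replicates 2, 4 or 5 of the combined exposure (adjusted p = 0.0862 to 0.0893), and on correction for GC content (-1.40, adjusted p = 0.0593).

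Itgax encodes CD11c, an integrin of dendritic cells and of macrophages in fatty tissue. It was at 2.74, 3.57, 1.30, 2.37 and 1.29 CPM in HFD control and at 2.16, 5.22, 4.13, 2.57 and 4.58 in HFD + Aroclor. It was at 1.30 to 3.55 CPM in HFD + PCB 126 and at 2.13 to 4.41 in HFD + Aroclor + PCB 126. The groups overlapped, with log2FC of 0.72 with Aroclor (adjusted p = 0.265 in edgeR), -0.18 with PCB 126 and 0.54 with both (adjusted p = 0.207). Trem2, a lipid receptor of macrophages that gather at damaged or fat-laden cells, was at 0.473 to 1.75, 1.13 to 2.00, 0.580 to 2.00 and 0.210 to 2.66 CPM in HFD control, HFD + Aroclor, HFD + PCB 126 and the combined exposure. Gpnmb, a glycoprotein of the same lipid-handling macrophages, was at 0.458 to 6.80, 1.33 to 5.07, 0.644 to 3.40 and 0.734 to 5.56 CPM in the same order. Tnf, the inflammatory cytokine, was at 0.0381 to 0.371, 0.0998 to 0.549, 0.0704 to 0.232 and 0.0727 to 0.490 CPM. For Trem2, Gpnmb and Tnf no exposure separated from HFD control, and their standard errors were wide, from 0.45 to 0.67 on the log2 scale. With Aroclor the 95% interval of the log2FC was -0.48 to 1.38 for Trem2, -1.01 to 1.70 for Gpnmb and -0.58 to 1.90 for Tnf, so that a 2-fold rise lay within the interval of each.

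Over the 10 genes, Aroclor alone gave 9 positive log2FC, with a median of 0.45 against -0.01 over all genes tested. None of the 10 passed an adjusted p of 0.05 in edgeR, where the share over all 15522 genes was 0% before and 0% after GC correction. At an unadjusted p under 0.05 there were 3 of 10 (Adgre1, Ccr2 and Itgax), against 17.2% of all genes, and DESeq2 called Ccr2 alone of the 10, beside 1.2% of the genes it gave an adjusted p. With PCB 126 alone 2 of 10 values were positive (median -0.17) and none passed, where 0.116% of all genes did. Ccl2 was the single one of the 10 at an unadjusted p under 0.05, no more than the 14.7% of all genes, and the single one called by DESeq2 (2.53% of its genes), and after GC correction it was 1 of 10 called, against 0.174% of all genes. With both PCBs 3 of 10 passed, Adgre1 and Ccr2 upward and Ccl2 downward, a share of 30% beside 32.8% of all genes (DESeq2 called the same 3, beside 42.5% of its genes), and after GC correction 0 of 10 passed beside 2.82%, with 3 of 10 at an unadjusted p under 0.05 beside 19.9%. The share called before the correction was thus no higher than among all genes. The same 5 HFD control mice enter these 3 comparisons.

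**Figure D2:**
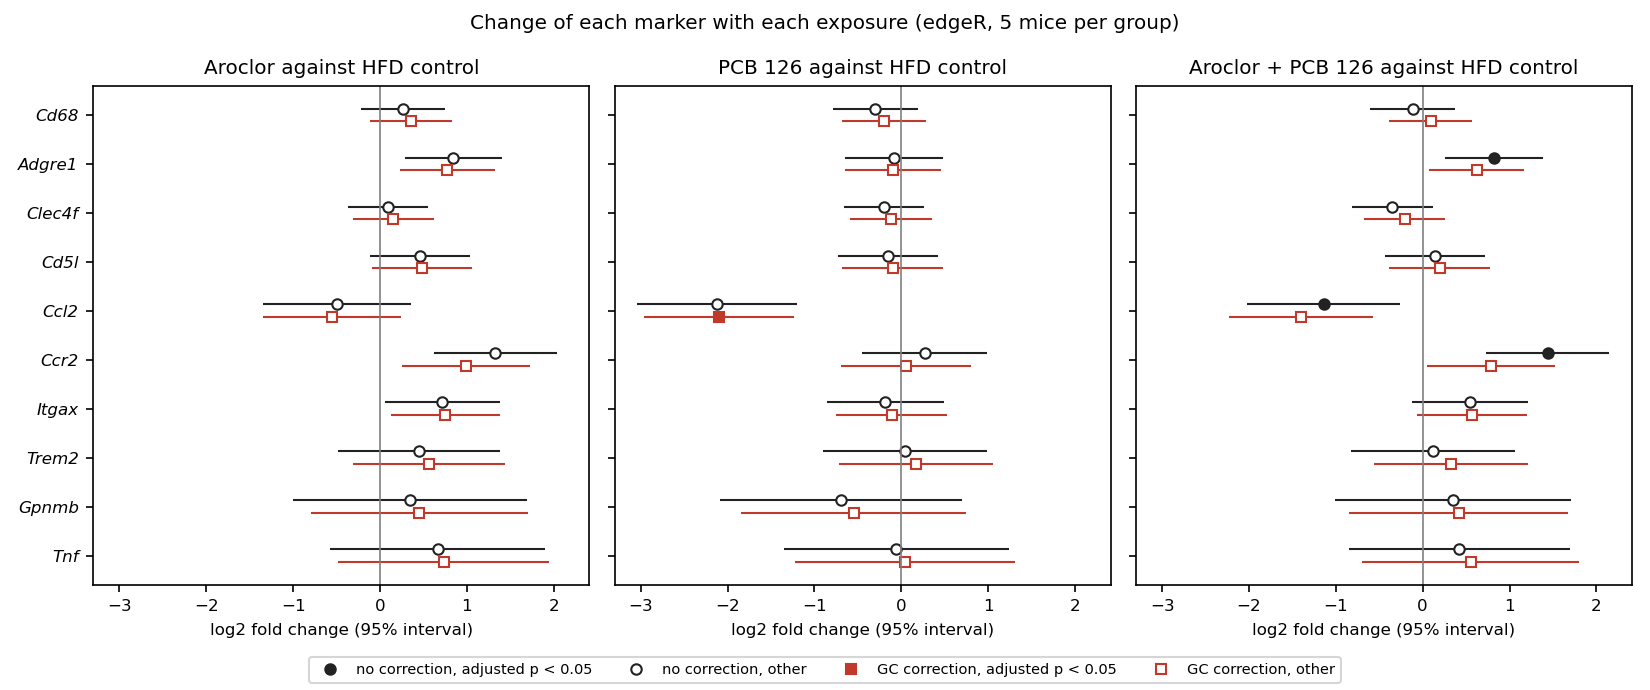
log2 fold change of each transcript against HFD control with its 95% interval (edgeR, 5 mice per group), for Aroclor, PCB 126 and both. Circles are without and squares with GC correction, filled where the adjusted p was under 0.05. The filled circles are Adgre1, Ccr2 and Ccl2 with both PCBs, and the 1 filled square is Ccl2 with PCB 126.

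The combined exposure was also set against each single exposure. Against Aroclor, 0 of 10 genes passed in edgeR, beside 0.412% of all genes, and 0 were called by DESeq2, beside 12.6%. At an unadjusted p under 0.05 there were 0 of 10, beside 23.4% of all genes. After GC correction 0 of 10 passed, beside 0.0129%, and 1 of 10 (Ccl2, -0.85, adjusted p = 0.553) was at an unadjusted p under 0.05, beside 8.97%. Ccr2 differed by 0.11 (95% interval -0.57 to 0.79) and Adgre1 by -0.02 (-0.58 to 0.53) between these 2 groups. Against PCB 126, Adgre1 was higher with both PCBs by 0.90 (adjusted p = 0.0307) and Ccr2 by 1.17 (adjusted p = 0.0270), 2 of 10 beside 16.7% of all genes, and DESeq2 called the same 2, beside 29.2%. After GC correction neither passed (0.72 and 0.74, adjusted p = 0.171 and 0.260), as was so for all genes tested (0%). Both calls were lost without replicate 3, 4 or 5 of HFD + PCB 126 or replicate 4 or 5 of the combined exposure, and 1 of them without replicate 1 or 3 of the combined exposure. For the interaction, the departure of the combined exposure from the sum of the single ones, no gene passed in edgeR (0% of all genes, and 0% after GC correction) and none of the 10 in DESeq2 (0.00655% of its genes). Ccl2 was the single one of the 10 at an unadjusted p under 0.05, beside 11.9% of all genes, with an interaction of 1.47 (95% interval 0.21 to 2.73, adjusted p = 0.361).

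The 10 mice given each PCB were also compared with the 10 not given it, in a contrast added after the data had been seen. That no interaction passed does not show that the effect of a PCB was equal with and without the other. With Aroclor, averaged over both PCB 126 backgrounds, Ccr2 rose by 1.25 (SE 0.24, adjusted p = 0.00699 in edgeR), Adgre1 by 0.87 (SE 0.19, adjusted p = 0.00810) and Itgax by 0.72 (SE 0.23, adjusted p = 0.0273). These were 3 of 10 beside 24.4% of all genes (the same 3 in DESeq2, beside 35.7%), and the call of Itgax was lost without replicate 2 or 5 of HFD + Aroclor, replicate 3 or 4 of HFD + PCB 126, or replicate 4 of the combined exposure. After GC correction the values were 0.86, 0.75 and 0.71 with adjusted p of 0.10, 0.0808 and 0.109, where 0.0129% of all genes passed. Clec4f moved by -0.03 in the same contrast (95% interval -0.36 to 0.30) and Cd68 by 0.23 (-0.12 to 0.57). With PCB 126, averaged over both Aroclor backgrounds, Ccl2 fell by 1.38 on the log2 scale (SE 0.30, adjusted p = 0.0157) and was the only one of the 10 called, beside 5.59% of all genes, and the only one in DESeq2, beside 15.3%. This average joins -2.11 without Aroclor and -0.65 on the Aroclor background (95% interval -1.53 to 0.23, adjusted p = 0.352). The Ccl2 call held after GC correction (-1.47, adjusted p = 0.0212, beside 0.844% of all genes) and in each of the 28 alternatives run for it (-1.49 to -1.17).

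Within a library, the ratio of a macrophage transcript to Clec4f does not depend on library size. The ratio of Adgre1 to Clec4f, in CPM over CPM, was 0.0834 to 0.143 in HFD control and 0.0912 to 0.175 in HFD + PCB 126. It was 0.162 to 0.239 in HFD + Aroclor and 0.190 to 0.362 in HFD + Aroclor + PCB 126. Both groups given Aroclor were above HFD control in all 5 of 5 mice, and this separation was also seen after GC correction (0.173 to 0.238 and 0.166 to 0.326, against 0.0993 to 0.155). Among 11341 genes of at least 1 CPM, the ratio to Clec4f lay above every control in all mice of HFD + Aroclor for 0.265% before and 0.0882% after GC correction, and in the combined exposure for 4.12% and 1.05%. The ratio of Ccr2 to Clec4f was 0.0157 to 0.0369 in HFD control, 0.0425 to 0.0649 in HFD + Aroclor, 0.0198 to 0.0554 in HFD + PCB 126 and 0.0440 to 0.116 in the combined exposure, and after GC correction the groups overlapped. The ratio of Cd5l to Clec4f was 0.996 to 1.17 in HFD control and 1.20 to 2.02 in the combined exposure, with no overlap, but the groups overlapped after GC correction, and HFD + Aroclor (1.16 to 1.65) overlapped HFD control. The ratio of Itgax to Clec4f overlapped between every exposure and HFD control, and so did that of Cd68 (0.0667 to 0.142 over all mice). These ratios were chosen after the levels had been seen and are given as a description.

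**Figure D3:**
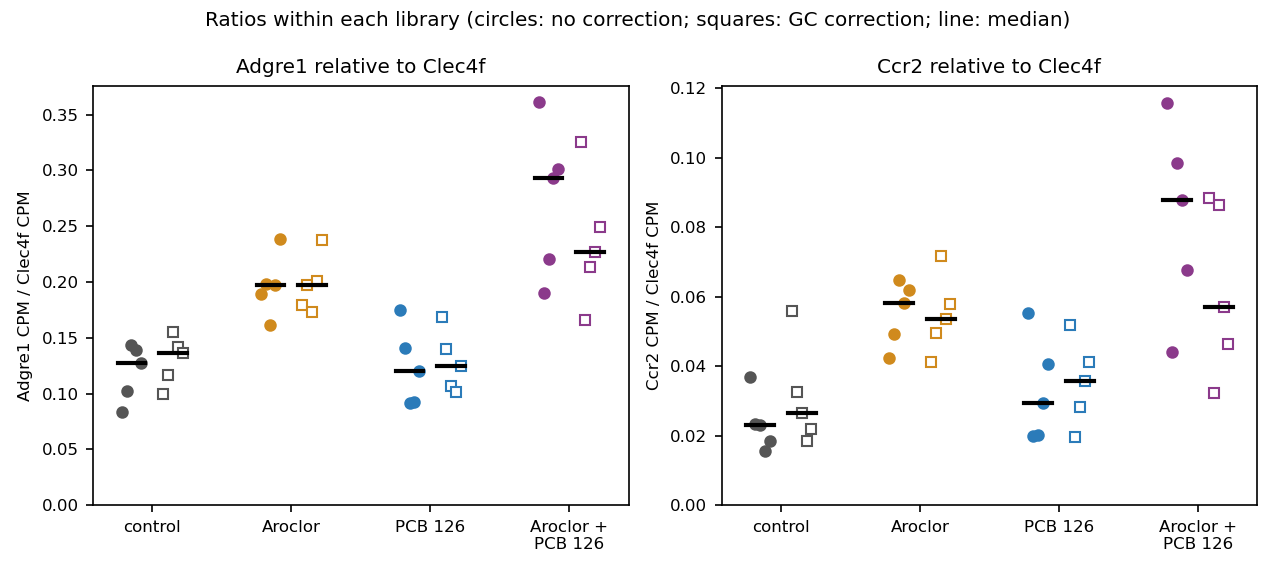
Ratio of Adgre1 and of Ccr2 to Clec4f (CPM over CPM, linear axes from 0) in each of 20 mice by group, circles without and squares with GC correction, with a line at the median. For Adgre1 every mouse of HFD + Aroclor and of the combined exposure lies above the HFD control mice on both scales, and for Ccr2 the GC-corrected groups overlap.

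Much of the variation of these transcripts lay between mice of 1 group. By GC-corrected log2 CPM, replicate 1 of HFD + PCB 126 was above its group's mean for 10 of 10 genes and replicate 5 for 0 of 10. On the same scale, in the combined exposure replicate 3 was above the mean for 10 of 10 and replicate 5 for 0, in HFD + Aroclor replicates 1 and 4 for 0, and in HFD control replicate 2 for 9. On GC-corrected log2 CPM with group means taken off (n = 20 mice, 45 pairs of genes, permutation of mice within groups), Clec4f and Cd5l varied together with Pearson's r = 0.90 (adjusted p = 0.000225) and Spearman's rho = 0.88 (adjusted p = 0.000225), where 1e-05 is the smallest unadjusted p these permutations can give. Leaving out the 2 mice farthest from the median of Clec4f gave r = 0.85. Among Cd68, Adgre1, Clec4f and Cd5l the 6 values of r were 0.78 to 0.90. Trem2 and Gpnmb varied together as well, with r = 0.79 (adjusted p = 0.000787 by permutation) and rho = 0.87 (adjusted p = 0.0006), and r = 0.78 without the 2 farthest mice. Itgax had r of 0.69 with Trem2 and 0.68 with Gpnmb. Between Cd68, Adgre1, Clec4f and Cd5l on one side and Itgax, Trem2 and Gpnmb on the other, the 12 values of r ranged from -0.17 to 0.70, with Cd68 and Itgax the highest. Those of Clec4f and Adgre1 with Trem2 and Gpnmb were -0.17 to 0.10, while Trem2 had r of 0.40 with Cd68 and 0.22 with Cd5l. Ccr2 went with genes of both sides, with r of 0.72 with Cd5l, 0.65 with Cd68, 0.72 with Itgax and 0.59 with Trem2, but 0.30 with Gpnmb. Tnf had its highest r, 0.73, with Itgax. Ccl2 had r of at most 0.41 with each of the other 9. Both transcripts of a pair come from the same library and share its depth and cell content.

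**Figure D4:**
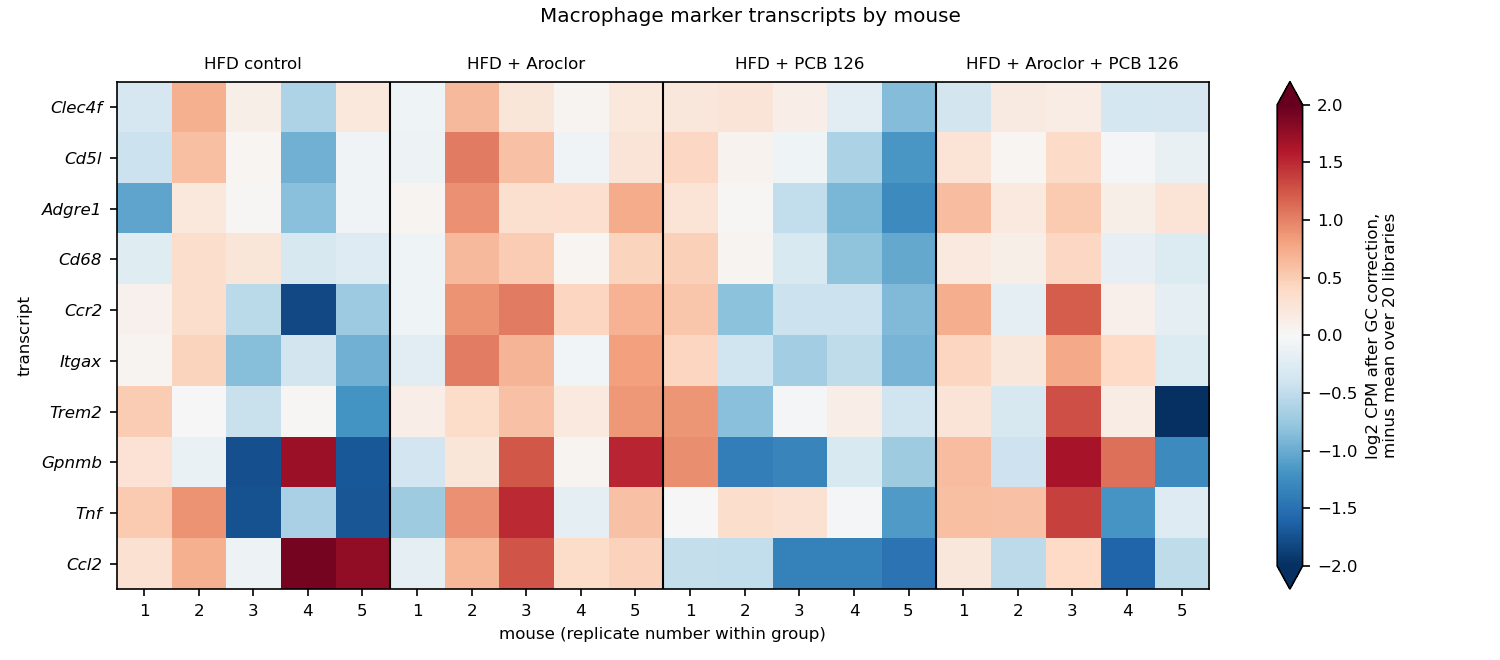
GC-corrected log2 CPM of each transcript in each mouse, minus its mean over the 20 libraries (colour scale from -2 to 2, values beyond drawn at its ends), with the mice of each group side by side. Clec4f, Cd5l, Adgre1 and Cd68 share their pattern over mice, Trem2 and Gpnmb share another, and Ccl2 is highest in HFD control replicates 4 and 5.

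Each marker was compared with the 11341 genes of at least 1 CPM by the same measure (Pearson's r over 20 mice, a description). Closest to Cd5l were Pilra and C1qa, the complement subunit that Kupffer cells make (both r = 0.97), and closest to Clec4f were Fabp7 and Folr2 (both 0.93). Slc15a3 (0.96) and Axl (0.94) were closest to Cd68, P2ry12 (0.92) and March1 (0.91) to Adgre1, Myo1f (0.92) and Apbb1ip (0.91) to Ccr2, and Clec4a2 (0.92) and Pkib (0.90) to Itgax. Trem2 was closest to Cx3cr1, a chemokine receptor of monocytes (0.84), and Gpnmb to Pfkfb4 (0.86) and Mmp12, the macrophage elastase (0.85). Ccl2 was closest to the immediate early gene Ier5 (0.83) and to the neutrophil chemokine Cxcl1 (0.82).

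Other genes used as markers of these cells were taken from lists. Of 16 further Kupffer cell genes, 0 passed with Aroclor and 0 with PCB 126 (0 at an unadjusted p under 0.05 as well). With both PCBs Slc40a1, the iron exporter, rose (0.56, adjusted p = 0.00618 in edgeR), and Nr1h3, the oxysterol receptor LXR alpha, fell (-0.70, adjusted p = 0.00601), 2 of 16 beside 32.8% of all genes, and neither passed after GC correction. The phagocytic receptors Vsig4, Timd4 and Marco did not pass in any of these, with log2FC of 0.43, 0.33 and -0.19 with both PCBs. Over the list, 7 of 16 values were positive with both PCBs (median -0.10), and 8 of 16 after GC correction (median -0.007). At an unadjusted p under 0.05 there were 6 of 16, beside 42.4% of all genes, and 0 after the correction, beside 19.9%. The summed level of the list overlapped between groups, with medians of 534, 508, 480 and 536 CPM in HFD control, HFD + Aroclor, HFD + PCB 126 and the combined exposure. Slc40a1 and Nr1h3 weighed most in this sum, with means of 134 and 93.0 CPM in HFD control and 198 and 57.4 in the combined exposure. The sum therefore says little about the other genes of the list, and which liver cells made Slc40a1 and Nr1h3 was not tested. Of 12 monocyte genes, all 12 had a positive log2FC with Aroclor (median 0.42, against -0.01 over all genes tested), 0 passed and 2 were at an unadjusted p under 0.05, no larger a share than the 17.2% of all genes. Positive values with Aroclor were not particular to monocyte genes, as 6 of 6 neutrophil genes (median 0.49) and 7 of 8 T and NK cell genes (median 0.52) were positive as well. With both PCBs 10 of the monocyte genes were positive (median 0.27) and Cybb, a subunit of the phagocyte oxidase, passed before GC correction alone (0.76, adjusted p = 0.0418), 1 of 12 beside 32.8% of all genes. The summed monocyte level was 95.6 to 164 CPM in HFD control, 114 to 212 in HFD + Aroclor, 53.6 to 151 in HFD + PCB 126 and 115 to 183 in the combined exposure. Lyz2 weighed most in it, with means of 79.2, 101, 60.3 and 92.3 CPM in the same order. The monocyte sum therefore says little about the other genes of its list.

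Of 12 genes of lipid-associated macrophages, 4 passed with both PCBs, Atp6v0d2 upward and Cd9, Fabp5 and Ctsd downward, a share of 4 in 12 that was close to the 32.8% of all genes. After GC correction Cd9 and Fabp5 passed, 2 of 12 beside 2.82% of all genes. Cd9, a tetraspanin that other liver cells make too, fell from 17.3 ± 3.29 CPM in HFD control (SD, n = 5) to 11.7 ± 1.39 in the combined exposure (log2FC -0.71 after GC correction, adjusted p = 0.00937) and was at 10.4 ± 2.63 in HFD + PCB 126 (-0.69, adjusted p = 0.0319). Fabp5, a fatty acid carrier, had a log2FC of -1.55 with both PCBs after GC correction (adjusted p = 0.0271). Spp1, the osteopontin gene, did not pass with any exposure. Of 20 cytokine and NF-kB target genes, 0 passed with Aroclor, 0 with PCB 126 (3 and 6 at an unadjusted p under 0.05, beside 17.2% and 14.7% of all genes) and 2 with both PCBs (Vcam1 and Tlr4, upward, beside 32.8%), of which 0 after GC correction. With PCB 126, 17 of these 20 had a negative log2FC (median -0.41, against -0.02 over all genes tested). Medians were negative in the neutrophil (-0.63), monocyte (-0.32), sinusoidal endothelial (-0.29), Kupffer cell (-0.28) and dendritic cell (-0.22) lists too. So were those of the cholangiocyte (-0.19), lipid-associated macrophage (-0.16), hepatocyte (-0.14) and T and NK cell (-0.03) lists, while the stellate cell (0.13) and B cell (0.18) medians were positive. The 6 neutrophil genes were at low levels (means of 0.022 to 2.68 CPM in HFD control), with 0 at an unadjusted p under 0.05. Cxcl10, a chemokine for T cells, was at 2.70 to 4.01 CPM in HFD + PCB 126 and at 5.77 to 8.24 in HFD control, with no overlap (log2FC -1.02, adjusted p = 0.0739 in edgeR). Of all genes tested, 0.908% were lower in every PCB 126 mouse than in every control. Averaged over both Aroclor backgrounds, Cxcl10 fell with PCB 126 (-0.83, adjusted p = 0.0124), 1 of 20 beside 5.59% of all genes. It also passed once GC content was corrected for (-0.86, adjusted p = 0.0322), 1 of 20 beside 0.844%. On the Aroclor background alone its value was -0.63 (adjusted p = 0.132). Il1b, Il6 and Cxcl1 did not pass in any comparison with HFD control.

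Markers of other liver cells were set beside these. Transcripts of 5 hepatocyte genes summed to 75393 to 106525 CPM in every library, against 110 to 419 CPM for the 10 macrophage genes. With both PCBs Apoa1 and Ttr fell and Apob rose, 3 of 5 beside 32.8% of all genes. Ttr passed after GC correction as well (-0.94, adjusted p = 0.0332), 1 of 5 beside 2.82% of all genes. Of 6 stellate cell genes, Lrat, Reln, Dcn and Hgf rose and Des fell with both PCBs before GC correction, 5 of 6 beside 32.8% of all genes, and none passed after it. Their summed level was 138 to 267 CPM in HFD control, 236 to 331 in HFD + Aroclor, 180 to 322 in HFD + PCB 126 and 275 to 355 in the combined exposure, so that its 2 highest medians were in the same groups as those of Ccr2 and Adgre1, and its part in their levels was not tested. T and NK cell genes (8) summed to 3.47 to 8.87 CPM, dendritic cell genes (6) to 8.63 to 15.7, B cell genes (4) to 1.54 to 8.56, neutrophil genes (6 tested) to 2.15 to 10.7 and cholangiocyte genes (4) to 3.24 to 8.41, and in none of these lists did a gene pass with any exposure against HFD control. Of 6 sinusoidal endothelial genes Stab2, the scavenger receptor of these cells, fell with both PCBs before GC correction alone (-0.50, adjusted p = 0.0077), 1 of 6 beside 32.8% of all genes.

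**Figure D5:**
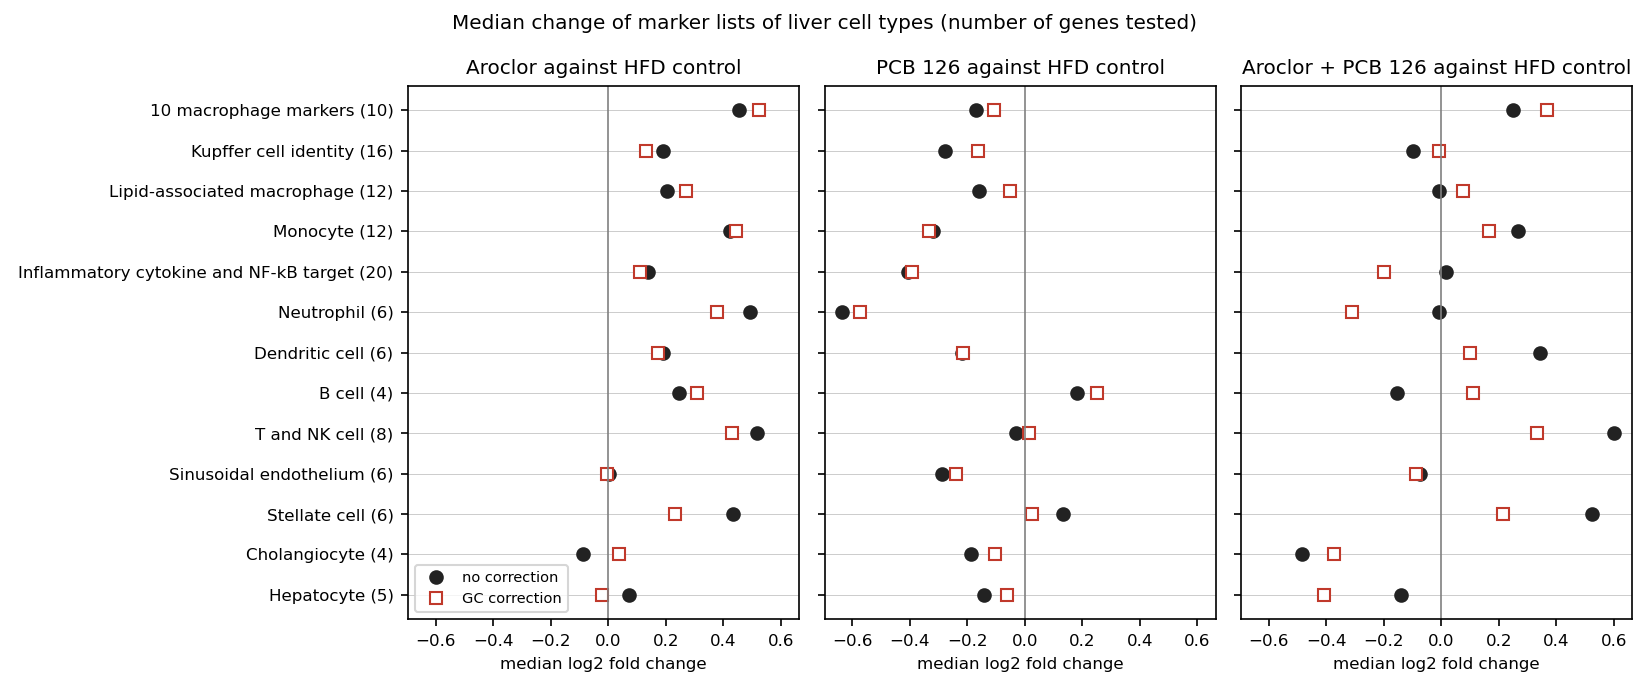
Median log2 fold change of marker lists of liver cell types against HFD control for Aroclor, PCB 126 and both (number of genes tested in parentheses), circles without and squares with GC correction. With Aroclor the medians of the 10 markers (0.45), the monocyte (0.42), T and NK cell (0.52), neutrophil (0.49) and stellate cell genes (0.43) are among those positive on both scales. With PCB 126 those of the neutrophil (-0.63), cytokine (-0.41) and monocyte genes (-0.32) are among those negative on both.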

How the data were processed

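Liver RNA of 20 mice (5 per group) was sequenced. Raw counts for each Ensembl gene were deposited by the authors in a single table, made from stranded poly(A) libraries with STAR 2.6 on GRCm38.p6 and HTSeq 0.10.0, as the methods and the submitters' processing notes give. Whether HTSeq counted by strand is not given in the sources used here. Columns were matched to mice by the sample titles. For PCB 126 replicate 2 another part of the label carries a different number, and the title was followed.

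Genes with at least 10 counts in total (15522) were normalized by TMM and tested in edgeR 4.0.16 (R 4.3.3) by the two-sided quasi-likelihood test, with 4 groups in 1 fit (16 residual degrees of freedom) and Benjamini-Hochberg adjustment over these genes. Symbols, exons and GC content are from GENCODE M21. GC correction smoothed each library's log2 deviations over GC content (spline, 6 degrees of freedom) and entered the smooth as an offset. The script was tested on simulated data. Alternatives were RLE factors, DESeq2 1.42.0, other filters, the replicate number as a block, only the groups compared, and leaving out each mouse. Contrasts averaged over the other exposure were added after seeing the data. Mice with the same number were not paired by the labels, and the correlation of their deviations ranged from -0.27 to 0.77 (13 of 30 pairs over 0.1). No 2 libraries of a group were alike within counting noise (chi-square over degrees of freedom at least 19.7). Libraries held 21836506 to 36854887 counts, and the spread between mice adds to counting error in each SE.

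The 10 genes and the marker lists were chosen with earlier results of these data known. Named beyond the 10 were some of the first 4 genes of the lists, those past the threshold after GC correction, exposure markers and the nearest 2 genes by correlation for each marker of at least 1 CPM. List genes past the threshold before GC correction alone, and Cxcl10, were named after their values were seen.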

Additional observations from a re-analysis of the deposited data

Results flagged for a closer look

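Of 40 sets of 5 values (10 genes in 4 groups), 4 held a mouse set apart from the other 4 by Dixon's criterion (0.71 of the range), where about 1 in 20 is flagged by chance. In HFD + PCB 126, replicate 1 was at 5.67 CPM for Ccr2 (others 1.9 to 2.12), 3.55 CPM for Itgax (others 1.3 to 1.9) and 3.40 CPM for Gpnmb (others 0.644 to 1.29). The same mouse was above its group's mean for all 10 genes. In HFD control, replicate 4 was at 6.80 CPM for Gpnmb (others 0.458 to 2.14), and it also had the highest Ccl2 of the 20 mice. Left out in turn, HFD + PCB 126 replicate 1 ended no call among the 10 genes.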

How the results depend on the processing

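The number of the 10 genes past the threshold changed as follows, and the cause was not tested except where given. With PCB 126 against HFD control it was 0, and 1 (Ccl2) with filterByExpr, the FPKM filter, GC correction, GC correction with the replicate block, and DESeq2, and 0 to 1 without single mice. Fitting only the groups compared gave Ccl2 an adjusted p of 0.269 with a log2FC of -2.13, and took Ccl2 with both PCBs to 0.0921, which was 0.0541 without a filter. With Aroclor against HFD control it was 0, and 1 (Ccr2) in DESeq2. With both PCBs against HFD control it was 3, and 0 with GC correction, with or without the replicate block, and 1 to 3 without single mice, the 1 (Ccr2) being without HFD + Aroclor + PCB 126 replicate 4. With both PCBs against PCB 126 it was 2, and 1 with the FPKM filter, which removes Ccr2, and 0 with GC correction, with or without the block, and 0 to 3 without single mice. For Aroclor averaged over both backgrounds it was 3, and 1 with the FPKM filter, which removes Ccr2 and Itgax, 0 with GC correction, 1 (Adgre1) with GC correction and the block, and 2 to 4 without single mice. RLE factors moved none of these counts by over 1.5 times.

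The replicate block alone took the combined exposure from 3 to 2 genes (Ccl2 -1.09, adjusted p = 0.0811), and the other counts were unchanged by it. The labels do not pair the mice, and 10 of 20 libraries correlated best with one of their own number. Between groups, the median correlation was 0.075 for mice of the same number and -0.014 for other pairs. Whether same-numbered mice shared a handling step was not tested.

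Directions that turned were all of values past no threshold. GC correction gave 0.044 for Tnf with PCB 126 and 0.090 for Cd68 with both PCBs, and 0.023 and 0.10 with the block. Without single mice, the log2FC with PCB 126 ranged from -0.35 to 0.077 for Adgre1, -0.31 to 0.019 for Clec4f, -0.37 to 0.089 for Cd5l, -0.19 to 0.49 for Ccr2, -0.50 to 0.053 for Itgax, -0.27 to 0.28 for Trem2, -1.35 to 0.22 for Gpnmb and -0.30 to 0.40 for Tnf. With Aroclor it ranged from -0.027 to 0.31 for Clec4f, and with both PCBs from -0.43 to 0.39 for Trem2, -0.038 to 1.26 for Gpnmb and -0.026 to 0.85 for Tnf.

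Counting error weighed most on Tnf (1 to 19 counts) and Trem2 (6 to 76), and how much of their spread it made up was not tested.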
